A study of Mus musculus with 26 samples.

Results

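The genes described here are the mouse H3K9 methyltransferases Ehmt1, Ehmt2, Suv39h1, Suv39h2, Setdb1 and Setdb2, together with Wiz, a zinc finger partner of the Ehmt1 and Ehmt2 enzymes. They were chosen by symbol, and all 7 of 7 were found among the 24412 gene symbols of each table. The series measured polyadenylated RNA of pooled C57BL/6J oocytes and preimplantation embryos in 26 libraries, as 13 groups of 2, in 3 tables. It asks what maternal loss of the H3K9 demethylases KDM3A and KDM3B does to the onset of embryonic transcription.

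The mDKO groups came from females in which floxed Kdm3a and Kdm3b were deleted by Zp3-Cre, a recombinase that growing oocytes express. Embryos were made by in vitro fertilisation, with sperm of wild-type males, so they lacked the maternal proteins and kept paternal alleles of both genes. Libraries without injection were mDKO and control oocytes in metaphase of the second meiotic division (MII), mDKO and control early 2-cell embryos (E2C), and mDKO and control late 2-cell embryos (L2C). The injected E2C groups were mDKO embryos given Kdm3aWT, Kdm3aHA or mCherry, and control embryos given mCherry. The injected 4-cell groups (4C) were wild-type embryos given Kdm3aWT, Kdm3aHA or mCherry. The genotype of the controls is labelled only as control, and the labels do not say what HA stands for. The titles of the mutant L2C libraries read DKO, while their genotype label says maternal DKO. Each library pooled 12 to 20 embryos, and each L2C library 20.

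Methylation of lysine 9 on histone H3 marks silent chromatin. EHMT2 (G9a) and EHMT1 (GLP) form a heterodimer that writes mono- and dimethylation in euchromatin, the marks that KDM3A and KDM3B remove, and WIZ bridges and stabilises that complex. SUV39H1 and SUV39H2 write trimethylation at pericentromeric heterochromatin. SETDB1 writes trimethylation at retroelements, where TRIM28 and zinc finger repressors recruit it, and SETDB2 is its paralogue.

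On GRCm38 the GENCODE annotation placed the genes as follows. Ehmt1 lay on chromosome 2 (24789928 to 24919614, minus strand) and Suv39h2 on the same chromosome (3455815 to 3475031, minus strand). Ehmt2 (34898469 to 34914052, plus strand) and Wiz (32354055 to 32389439, minus strand) lay on chromosome 17. Suv39h1 lay on the X chromosome (8061171 to 8074760), Setdb1 on chromosome 3 (95323525 to 95357202) and Setdb2 on chromosome 14 (59402009 to 59440884), all on the minus strand. Exons of Wiz (22.1% of its exonic bases), Suv39h1 (14.6%) and Suv39h2 (8.1%) overlapped genes on the opposite strand (Gm26858, Gm14820 and Dclre1c). Smaller overlaps on the opposite strand included those of Setdb1 with Gm37500 (3.63%) and Cers2 (1.09%). The sources used here do not say whether counting used strand, so reads from those overlaps cannot be told apart. Dclre1c itself stood between 1.15 and 6.77 TPM in all 26 libraries.

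The promoters of the SUV39 and SETDB paralogues are shown because the members of each pair followed different courses over the stages, as described below. Each stretch lies upstream of the outermost annotated start, is read 5′ to 3′ on the strand of its gene, and comes from RefSeq promoter windows on GRCm38.p6. Capitals mark CCAAT or its complement ATTGG, the box bound by the factor NF-Y.
Suv39h1, chrX:8074761-8075010, minus strand: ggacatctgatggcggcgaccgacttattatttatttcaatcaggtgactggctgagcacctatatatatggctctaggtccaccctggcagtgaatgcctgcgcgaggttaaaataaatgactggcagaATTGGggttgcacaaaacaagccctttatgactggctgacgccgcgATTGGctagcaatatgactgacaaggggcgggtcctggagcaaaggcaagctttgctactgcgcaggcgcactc
Suv39h2, chr2:3475032-3475236, minus strand: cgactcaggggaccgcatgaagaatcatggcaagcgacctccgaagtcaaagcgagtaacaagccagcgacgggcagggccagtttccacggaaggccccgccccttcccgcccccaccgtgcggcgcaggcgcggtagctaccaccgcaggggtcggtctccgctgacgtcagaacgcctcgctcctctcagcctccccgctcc
Setdb2, chr14:59440885-59441130, minus strand: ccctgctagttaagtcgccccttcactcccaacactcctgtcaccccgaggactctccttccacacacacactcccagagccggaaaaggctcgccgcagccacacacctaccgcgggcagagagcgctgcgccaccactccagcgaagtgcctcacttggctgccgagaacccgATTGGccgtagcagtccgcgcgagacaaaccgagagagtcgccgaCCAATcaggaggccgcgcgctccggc
Setdb1, chr3:95357203-95357452, minus strand: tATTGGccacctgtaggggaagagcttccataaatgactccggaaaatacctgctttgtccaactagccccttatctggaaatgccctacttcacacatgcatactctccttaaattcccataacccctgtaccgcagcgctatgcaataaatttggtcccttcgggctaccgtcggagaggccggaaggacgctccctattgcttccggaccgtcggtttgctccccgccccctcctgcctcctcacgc
The Suv39h1 and Setdb2 stretches hold 2 matches each, the Setdb1 stretch 1 and the Suv39h2 stretch 0. The window before a second Suv39h1 start (chrX:8074362-8074611) held 0. CCAAT was not the only motif searched. In the full windows the GC box (GGGCGG) had 1 match for Suv39h1, 3 for Suv39h2, 1 for Setdb1 and 0 for Setdb2. In the full windows of 250 bases before a start, 33.8% of all 32851 RefSeq promoters held at least 1 CCAAT match and 10.1% at least 2. A match describes the letters only.

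Before the members, the labels were checked against the targeted genes and stage markers. Kdm3a stood at 0.725 and 0.718 TPM in mDKO oocytes, against 8.08 and 8.83 in control oocytes, and Kdm3b at 1.75 and 1.87 TPM in mDKO oocytes, against 26.6 and 24.97 in control oocytes. At L2C Kdm3a was at 28.4 and 26.3 TPM in mDKO embryos, against 34.1 and 43.8 in controls. Kdm3b was lower in mDKO embryos there, at a log2 fold change of -1.03 ± 0.32 (SE, limma adjusted p = 0.0383). All 7 oocyte markers listed (such as Zp3 and Gdf9) were at 1 TPM or more in every MII, E2C and L2C library. Of the 7 markers of the 2-cell stage (such as Zscan4d and Dux), all were at 1 TPM or more in the E2C and L2C libraries, and 1 in the MII libraries. Between 7649 and 12396 genes reached 1 TPM in a library. The lowest of these was the 4C mCherry replicate 2 library, which stood apart, and its values are given beside each 4C result. Per the labels' protocols, MII libraries used another kit than E2C and 4C libraries, so stage and kit cannot be told apart between MII and E2C. The sources used here do not name the kit of the L2C libraries.

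**Figure D1:**
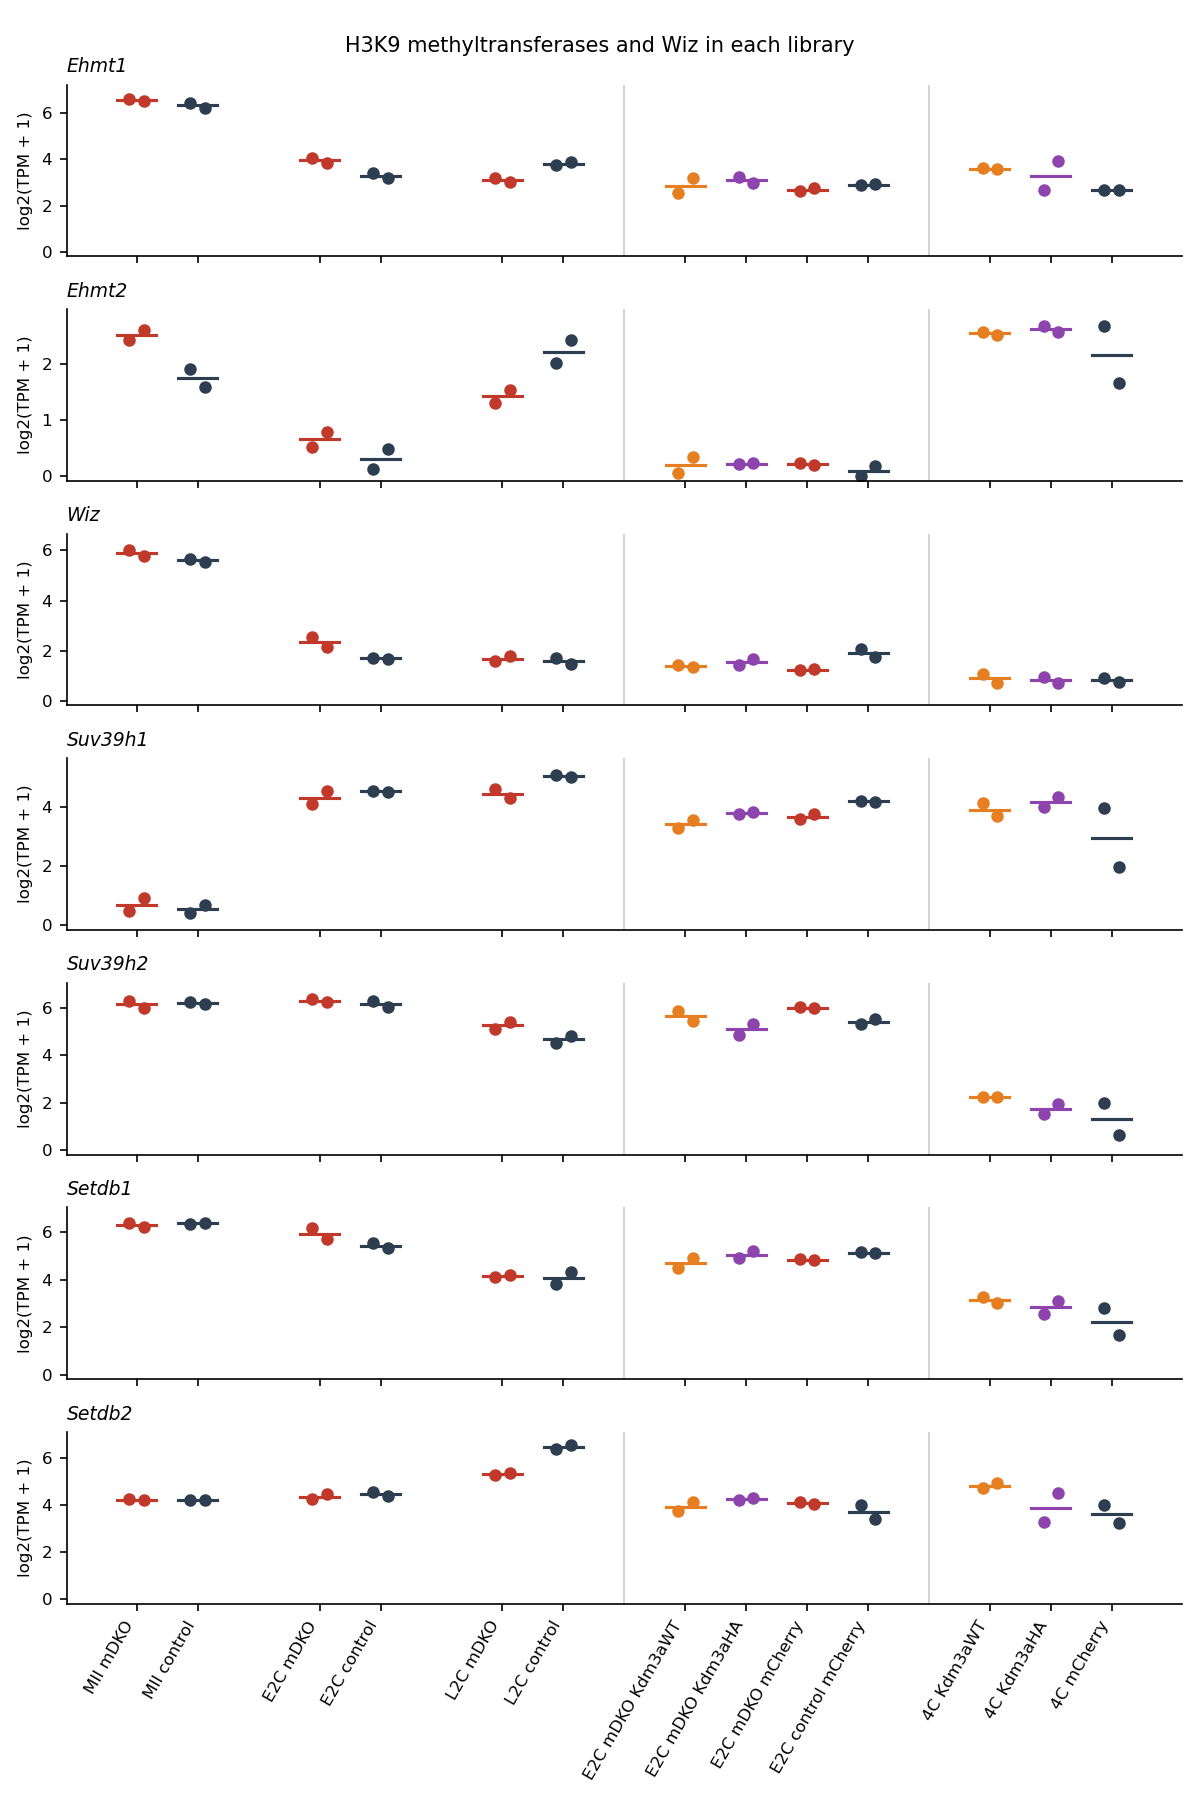
Each panel plots 1 gene, with log2(TPM + 1) on the vertical axis and the groups along the horizontal axis; points are libraries, bars the mean of 2 libraries and grey lines the limits between the 3 tables (red mDKO or mDKO mCherry, dark blue control or mCherry control, orange Kdm3aWT, purple Kdm3aHA). Ehmt1 and Wiz are high at MII and low afterwards, Suv39h1 shows the opposite, and Setdb2 is highest at L2C, where both mDKO points lie below both control points.

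In the uninjected series some of the genes had their highest levels in oocytes and others at E2C or L2C. Folds between MII and E2C mix stage and kit, which cannot be told apart. Ehmt1 and Wiz were abundant in oocytes and 9.19-fold and 21.5-fold lower in control E2C embryos than in control oocytes (ratio of mean TPM). Suv39h1 did the reverse and was 47.1-fold higher in control E2C embryos. Setdb2 rose later, being 4.09-fold higher in control L2C than in control E2C embryos. Ehmt2 was also higher at L2C, but from E2C levels under 1 TPM that do not allow a fold to be stated, while Suv39h2 and Setdb1 were 2.9-fold and 2.65-fold lower at L2C. Tests used limma on log2(TPM + 1), with p-values adjusted over all genes tested, and a gene was called at an adjusted p under 0.05.

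Ehmt1, the GLP enzyme, had 98.9 and 92.5 TPM in mDKO oocytes, against 87.5 and 75.5 in control oocytes. At E2C it had 15.6 and 13.6 TPM in mDKO embryos, against 9.66 and 8.08 in controls. At L2C it had 8.24 and 7.01 TPM in mDKO embryos, against 12.5 and 13.6 in controls. The mDKO libraries were thus the higher ones at MII and E2C and the lower ones at L2C, with no overlap at any of these stages.

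Ehmt2, the G9a enzyme, was the scarcer partner in all 12 uninjected libraries, with 4.40 and 5.14 TPM in mDKO oocytes, against 2.76 and 2.02 in control oocytes. At E2C it was near the floor, with 0.444 and 0.722 TPM in mDKO embryos, against 0.0949 and 0.402 in controls. At L2C it had 1.49 and 1.9 TPM in mDKO embryos, against 3.05 and 4.40 in controls. The mDKO libraries were the higher ones at MII and the lower ones at L2C, without overlap, and at E2C all 4 libraries were under 1 TPM, too low to order. Because TPM is scaled by length, the partners can be set side by side: the ratio of Ehmt1 to Ehmt2 lay between 18.0 and 37.4 in the 4 MII libraries and between 3.09 and 5.53 in the 4 L2C libraries.

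Wiz had 64.2 and 53.8 TPM in mDKO oocytes, against 49.6 and 46.1 in control oocytes. At E2C it had 4.83 and 3.43 TPM in mDKO embryos, against 2.25 and 2.22 in controls. At L2C the groups overlapped, with 1.98 and 2.45 TPM in mDKO embryos, against 2.28 and 1.80 in controls. Its decline after MII paralleled that of Ehmt1: over the 26 libraries the Pearson r of their log2(TPM + 1) was 0.931, a description across libraries that share stages and kits.

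Suv39h1 was close to absent from oocytes, with 0.386 and 0.893 TPM in mDKO oocytes, against 0.338 and 0.604 in control oocytes. At E2C it had 16.2 and 22.4 TPM in mDKO embryos, against 22.7 and 21.7 in controls, and these groups overlapped. At L2C it had 23.3 and 18.7 TPM in mDKO embryos, against 33.4 and 31.3 in controls, with both mDKO libraries below both controls.

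Its paralogue Suv39h2 was the more abundant of the pair both in oocytes and at E2C. It had 76.5 and 62.8 TPM in mDKO oocytes, against 74.2 and 70.5 in control oocytes. At E2C it was still at 81.2 and 73.8 TPM in mDKO embryos, against 77.2 and 64.8 in controls. At L2C it had 33.4 and 41.5 TPM in mDKO embryos, against 21.5 and 27.4 in controls, so that here the mDKO libraries were the higher ones, without overlap.

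Setdb1 had 84.0 and 72.8 TPM in mDKO oocytes, against 80.3 and 83.8 in control oocytes. At E2C it had 71.8 and 51.3 TPM in mDKO embryos, against 45.3 and 38.97 in controls, without overlap. At L2C it had 16.4 and 17.3 TPM in mDKO embryos, against 12.98 and 18.9 in controls, with overlap. The drop between these stages was therefore seen in both genotypes.

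Setdb2 was level in oocytes, with 18.2 and 17.5 TPM in mDKO, against 17.7 and 17.8 in control. At E2C it had 18.0 and 21.1 TPM in mDKO embryos, against 22.9 and 19.9 in controls, and the groups overlapped. At L2C it reached 37.8 and 40.2 TPM in mDKO embryos, against 82.6 and 92.4 in controls, the widest gap in TPM between the genotypes of any of the 7 genes at that stage.

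Of the 7 genes tested, 1 was called higher and 4 lower in control E2C embryos than in control oocytes, beside 35.1% of all genes called higher and 37% called lower (72.1% in all). Suv39h1 was higher by a log2 fold change of 3.99 ± 0.22 (SE; limma adjusted p = 2.93e-08). Wiz was lower at -3.92 ± 0.20 (limma adjusted p = 1.37e-08), Ehmt1 at -3.06 ± 0.16 (limma adjusted p = 1.92e-08), Ehmt2 at -1.44 ± 0.23 and Setdb1 at -0.95 ± 0.20. Suv39h2 (-0.03 ± 0.17, but 0.25 with size-factor scaling) and Setdb2 (0.25 ± 0.15) were not called. Size-factor scaling raised the median of all genes by 0.125, and with it Setdb2 was called higher (0.52, limma adjusted p = 0.00741). In mDKO, where 31.7% of all genes were called higher and 35.5% lower between the same stages (67.2% in all), Suv39h1 was called higher (3.63 ± 0.22) and Ehmt1, Ehmt2 and Wiz lower (-2.63 ± 0.16, -1.87 ± 0.23 and -3.56 ± 0.20). Setdb1 was not called there (-0.36 ± 0.20, limma adjusted p = 0.139), unless mDKO E2C replicate 1 was left out (-0.60, limma adjusted p = 0.0333). Suv39h2 was called higher in mDKO with size-factor scaling only (0.34, limma adjusted p = 0.0487, against 0.16 ± 0.17 without it).

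Between control L2C and control E2C embryos 3 of the 7 were called higher and 2 lower, beside 35.5% of all genes called higher and 30.1% called lower (65.6% in all). Setdb2 was higher at a log2 fold change of 1.98 ± 0.15 (limma adjusted p = 4.59e-07), Ehmt2, from E2C values under 1 TPM, at 1.92 ± 0.23 and Ehmt1 at 0.52 ± 0.16 (limma adjusted p = 0.016). Suv39h2 was lower at -1.50 ± 0.17 and Setdb1 at -1.37 ± 0.20. The Ehmt1 call was lost without control L2C replicate 2 (limma adjusted p = 0.0749) or control E2C replicate 2 (limma adjusted p = 0.111). Suv39h1 was not called (0.52 ± 0.22, limma adjusted p = 0.0595), but was with size-factor scaling (limma adjusted p = 0.0274). Both stage comparisons use the same E2C libraries, as do those in mDKO.

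In mDKO, where 31.9% of all genes were called higher and 20.8% lower between L2C and E2C (52.7% in all), 2 of the 7 were called higher and 4 lower at L2C. Setdb2 rose by a log2 fold change of 0.96 ± 0.15 and Ehmt2, again from E2C values under 1 TPM, by 0.77 ± 0.23, while Setdb1 was at -1.79 ± 0.20, Suv39h2 at -1.04 ± 0.17, Ehmt1 at -0.86 ± 0.16 and Wiz at -0.66 ± 0.20. Ehmt1 thus fell over this interval in mDKO embryos and rose in controls. The Ehmt2 call was lost without mDKO L2C replicate 2 or mDKO E2C replicate 1 (limma adjusted p = 0.0925 and 0.0946), and the Wiz call without mDKO L2C replicate 1 or mDKO E2C replicate 1 (limma adjusted p = 0.0967 and 0.101). The test of the difference between genotypes follows below with the L2C results.

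**Figure D2:**
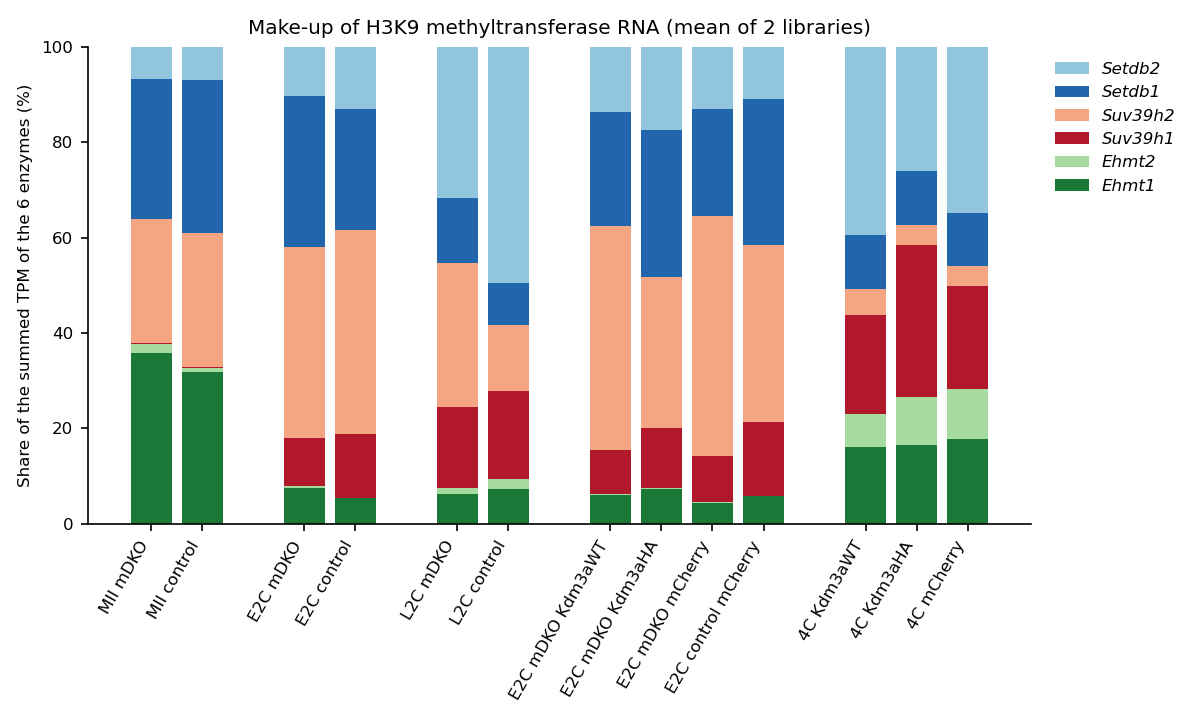
Stacked bars give the share of each enzyme in the summed TPM of the 6 enzymes (%), as the mean of the 2 libraries of a group, with the groups along the horizontal axis. Ehmt1 takes 30.2% to 36.8% in the MII libraries, Suv39h2 39.9% to 43.4% in the uninjected E2C libraries, and Setdb2 31.3% and 31.8% in the mDKO L2C libraries and 49.7% and 49.1% in the control L2C libraries.

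Taken as shares of their summed TPM, the 6 enzymes changed places between stages. Ehmt1 made up 35.0% and 36.8% of the sum in mDKO oocytes, against 33.3% and 30.2% in control oocytes. At E2C Suv39h2 led with 39.9% and 40.3% in mDKO embryos, against 43.4% and 42.1% in controls. At L2C Setdb2 held 31.3% and 31.8% in mDKO embryos, against 49.7% and 49.1% in controls. Suv39h2 at that stage held 27.7% and 32.8% in mDKO embryos, against 13% and 14.6% in controls. The L2C sum itself was 120.6 and 126.6 TPM in mDKO embryos, against 166.0 and 188.0 in controls.

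The paralogue ratios show the same shift within each library, free of the scaling between libraries but not of differences between kits. Between MII and E2C they mix stage and kit, and the kit of the L2C libraries is not named. Suv39h1 over Suv39h2 was 0.00505 and 0.0142 in mDKO oocytes, against 0.00456 and 0.00857 in control oocytes. It was 0.199 and 0.303 in mDKO E2C embryos, against 0.294 and 0.335 in controls. At L2C it was 0.699 and 0.450 in mDKO embryos, against 1.55 and 1.14 in controls, so Suv39h1 exceeded Suv39h2 in both control libraries and in neither mDKO library. Setdb2 over Setdb1 was 0.251 and 0.412 in mDKO E2C embryos, against 0.505 and 0.511 in controls. At L2C that ratio was 2.3 and 2.33 in mDKO embryos, against 6.36 and 4.90 in controls. These ratios are descriptions and were not tested.

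**Figure D3:**
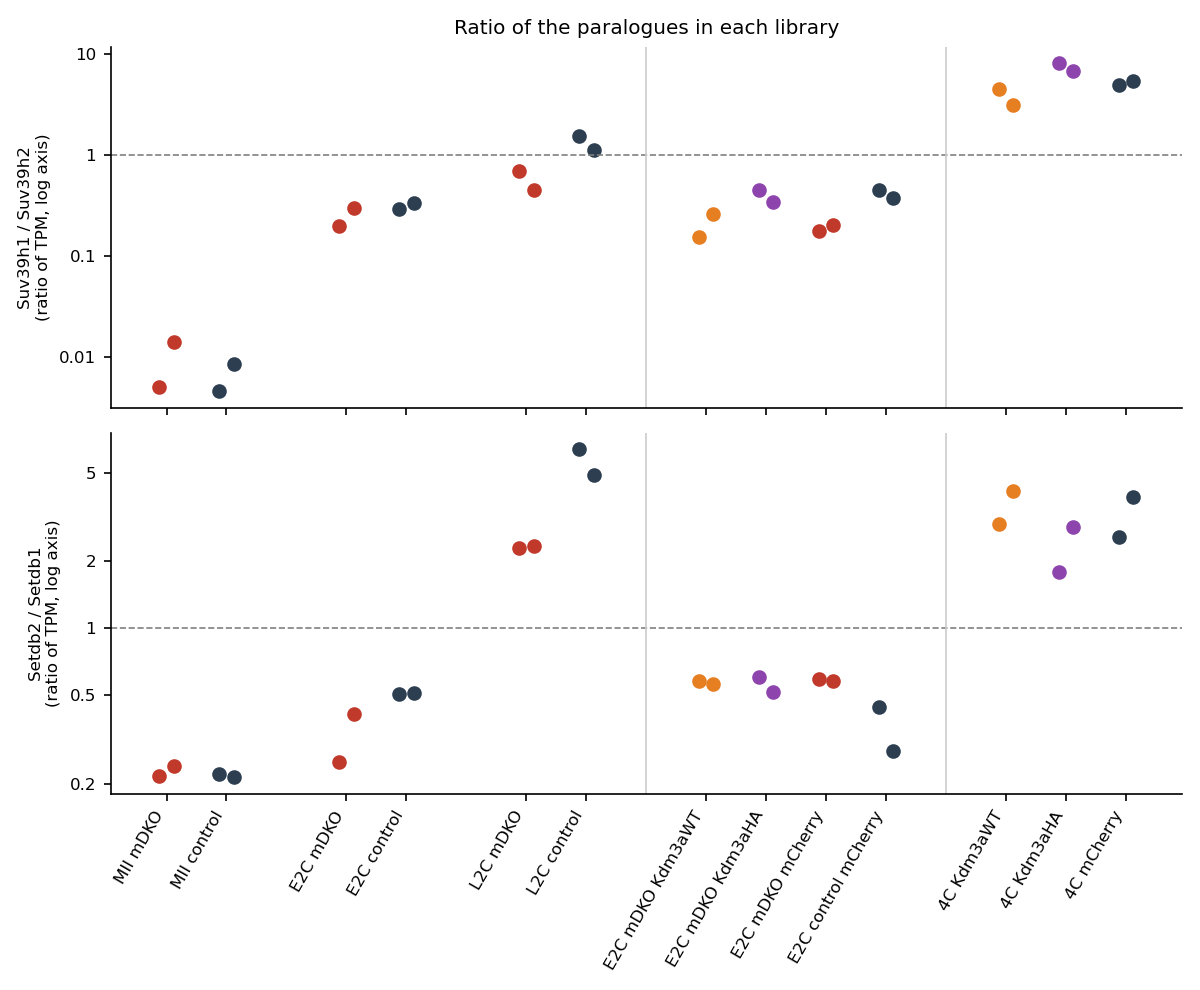
The upper panel plots Suv39h1 over Suv39h2 and the lower panel Setdb2 over Setdb1, each as the ratio of TPM on a log axis, 1 point per library in the same colours, with a dashed line at 1. At L2C both mDKO points lie below both control points in each panel.

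Loss of maternal KDM3A and KDM3B was tested against control at each stage. In oocytes 6 of the 7 genes passed the filter (2 or more libraries of the fit at 1 TPM or higher) and none was called by limma, beside 4.25% of all genes called (0.845% higher, 3.41% lower) and 2657 genes at an unadjusted p under 0.05. Ehmt2 had the largest fitted difference, at a log2 fold change of 0.77 ± 0.23 (limma adjusted p = 0.127, unadjusted p = 0.0181), and its mean TPM was 2.0-fold higher in mDKO. Ehmt1 stood at 0.23 ± 0.11 and Wiz at 0.29 ± 0.13, and the 3 genes of this complex were each higher in mDKO without overlap. Such non-overlap in the higher direction held for 21.2% of all genes. Suv39h2, Setdb1 and Setdb2 lay within 0.07 of zero, and Suv39h1 was below the filter.

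At E2C 6 of the 7 were tested and none was called by limma, beside 14.4% of all genes called (5.38% higher, 8.99% lower) and 3273 genes at an unadjusted p under 0.05. The largest differences were Ehmt1 at 0.66 ± 0.22 (limma adjusted p = 0.084), Wiz at 0.65 ± 0.27 (0.146) and Setdb1 at 0.52 ± 0.20 (0.124). Both mDKO libraries lay above both controls for these 3, as did 26% of all genes. Whether they were called depended on the libraries and terms in the fit. With 1 library left out the differences stayed positive, from 0.55 to 0.78 for Ehmt1, 0.45 to 0.85 for Wiz and 0.28 to 0.76 for Setdb1. Without mDKO replicate 2 they were larger than in the main test (0.76, 0.85 and 0.76). Ehmt1 was called higher when all 12 uninjected libraries shared 1 fit (limma adjusted p = 0.022). With the replicate number as a term in the fit, Ehmt1 and Setdb1 were called (limma adjusted p = 0.0348 and 0.0307). Suv39h1, Suv39h2 and Setdb2 stood at -0.21 ± 0.22, 0.13 ± 0.16 and -0.12 ± 0.20, and Ehmt2 was below the filter.

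Marker levels moved at E2C as well. The summed TPM of the 7 oocyte markers was 8883 and 7962 in mDKO E2C embryos, against 5566 and 5831 in controls. The 7 cumulus and granulosa markers summed to 169 and 204 TPM in mDKO, against 89.8 and 86.7 in controls, with 2 of the 7 at 1 TPM or more in both mDKO libraries and 1 in both controls; Foxl2 was listed at 0 in both mDKO libraries and Inha at 0 in both controls. Nearly all of that sum was Serpine2, at 166 and 202 TPM in mDKO and at 89.2 and 85.1 in controls. The 5 sperm markers summed to 13.7 and 12.1 TPM in mDKO, against 37.9 and 52.5 in controls, and the 5 blood markers to 1.75 and 0.44 TPM in mDKO, against 12.2 and 19.7 in controls. The 7 2-cell markers summed to 199 and 234 TPM in mDKO, against 695.5 and 968.2 in controls. Their part in the E2C values was not tested. In these pools fewer cells of a kind and less RNA per cell cannot be told apart.

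**Figure D4:**
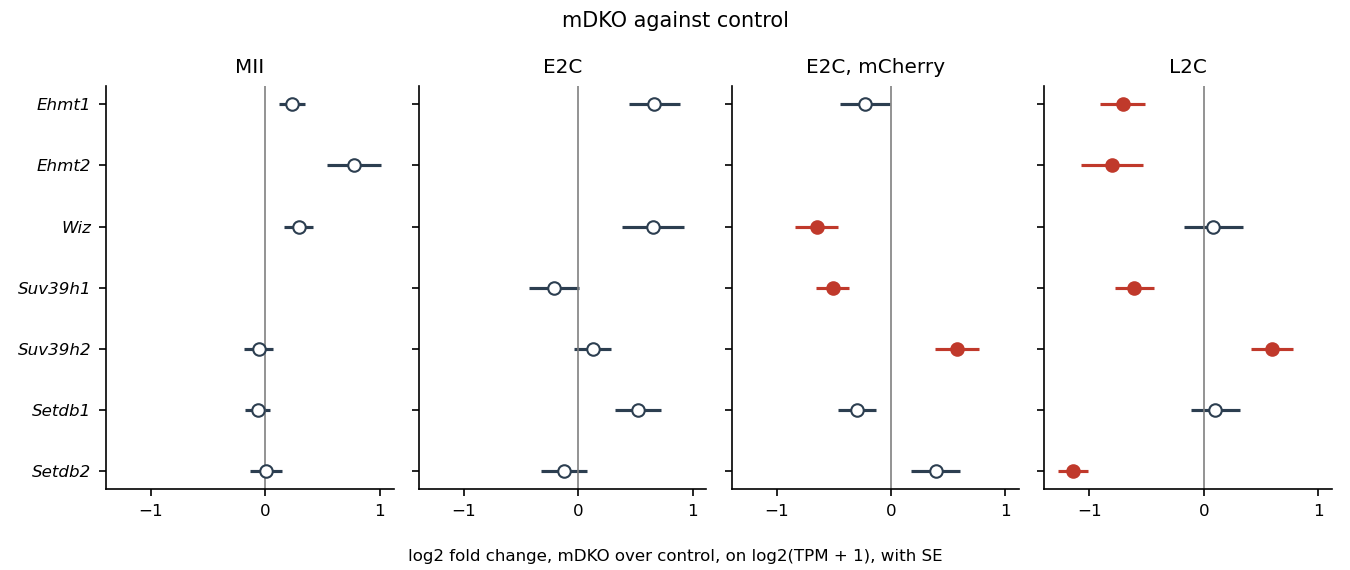
Points are log2 fold changes of mDKO over control on log2(TPM + 1) with standard errors, in panels for MII, uninjected E2C, mCherry-injected E2C and L2C; filled red points were called at an adjusted p under 0.05. None of the tested genes was called at MII or in uninjected E2C embryos, 3 were called in mCherry-injected E2C embryos and 5 at L2C.

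At L2C all 7 were tested, and 4 were called lower and 1 higher in mDKO embryos, beside 23.3% of all genes called lower and 19.1% called higher (42.4% in all). Setdb2 was lowest at -1.14 ± 0.13 (limma adjusted p = 0.000861), a mean TPM 2.24-fold lower, and this call held in 9 of 9 alternative settings. Ehmt2 stood at -0.80 ± 0.27 (limma adjusted p = 0.0494), Ehmt1 at -0.71 ± 0.20 (0.0251) and Suv39h1 at -0.61 ± 0.17 (0.0258). Suv39h2 was higher at 0.60 ± 0.19 (0.0386). For the 5 called genes the groups did not overlap, as held for 37.6% of all genes in the lower and 35.8% in the higher direction. Wiz and Setdb1 were not called, at 0.08 ± 0.26 and 0.10 ± 0.21. The median log2 fold change was -0.61 over the 7 genes and -0.00066 over all genes tested.

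Apart from Setdb2, each L2C call was lost in more than 1 fit with a library left out, while the fitted differences kept their sign. Those ran from -0.81 to -0.61 for Ehmt1, -1.01 to -0.59 for Ehmt2, -0.76 to -0.46 for Suv39h1 and 0.43 to 0.76 for Suv39h2. The count of called members was 1 without mDKO replicate 2, 3 without control replicate 1 and 2 without control replicate 2. Ehmt1 was lost without mDKO replicate 2 (-0.61, limma adjusted p = 0.131) or control replicate 2 (-0.65, 0.0762). Ehmt2 was lost without mDKO replicate 1 (-0.69, limma adjusted p = 0.199), mDKO replicate 2 (-0.91, 0.0917) or control replicate 2 (-0.59, 0.18). Suv39h1 was lost without mDKO replicate 2 (-0.46, limma adjusted p = 0.172), control replicate 1 (-0.56, 0.0784) or control replicate 2 (-0.65, 0.0511). Suv39h2 was lost without mDKO replicate 2 (0.44, limma adjusted p = 0.21) or control replicate 1 (0.43, 0.135). All 4 were lost without the filter on low TPM, at limma adjusted p-values from 0.0509 for Ehmt1 to 0.121 for Ehmt2. Ehmt2 was also lost at a pseudocount of 0.1 (limma adjusted p = 0.0561), and Suv39h1 with all 12 uninjected libraries in 1 fit (limma adjusted p = 0.0508).

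Other RNA moved with the L2C groups too. The oocyte markers summed to 7510 and 7665 TPM in mDKO L2C embryos, against 3325 and 2961 in controls. The 2-cell markers summed to 1145 and 914.5 TPM in mDKO, against 443.3 and 339.1 in controls. The cumulus and granulosa markers summed to 86.6 and 86.4 TPM in mDKO, against 35.7 and 47.9 in controls, of which Serpine2 made up 77.7 and 74.8 TPM in mDKO and 23.4 and 31.4 in controls. The 5 blood markers summed to 35.2 and 234 TPM in mDKO, against 188 and 316 in controls, with 2 of the 5 at 1 TPM or more in both libraries of each group and Hbb-bs listed at 0 in all 4. The part of these levels in the L2C results was not tested.

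The mDKO effect itself differed between L2C and E2C for 3 of the 7 genes, beside 25.7% of all genes called (12.5% lower, 13.2% higher) in that interaction contrast over the 12 uninjected libraries. The difference of effects was -1.37 ± 0.23 for Ehmt1 (limma adjusted p = 0.0019), -1.15 ± 0.33 for Ehmt2 (0.0271) and -1.02 ± 0.21 for Setdb2 (0.00527). Ehmt2 entered this fit through its MII and L2C values and was under 1 TPM in all 4 E2C libraries, so its difference rests on values too low to grade. All 12 alternatives used the uninjected libraries only, where the E2C effect was 0.66 ± 0.22 for Ehmt1 and -0.12 ± 0.20 for Setdb2. In mCherry-injected embryos these stood at -0.23 ± 0.22 and 0.39 ± 0.21. Ehmt1 and Setdb2 kept the call in 12 of 12 alternatives. Ehmt2 lost it in 4, namely without mDKO L2C replicate 1, control L2C replicate 2, mDKO E2C replicate 2 or control E2C replicate 1 (limma adjusted p = 0.0807, 0.0855, 0.0749 and 0.0952). For Suv39h1 and Suv39h2 the differences were -0.40 ± 0.32 and 0.47 ± 0.25 and were not called. Between E2C and MII the effect differed for 0 of the 7 by limma, beside 3.88% of all genes called (1.72% higher, 2.16% lower) and 2588 at an unadjusted p under 0.05. Setdb1 came nearest at 0.59 ± 0.29 (limma adjusted p = 0.312, unadjusted p = 0.0646).

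The injected E2C embryos gave a further set of libraries for the mDKO effect, in a separate table. Suv39h1 had 11.3 and 12.5 TPM in mDKO mCherry embryos, against 17.4 and 17.2 in control mCherry embryos. Suv39h2 had 63.5 and 61.6 TPM in mDKO mCherry, against 38.4 and 45.2 in control mCherry. Wiz had 1.36 and 1.39 TPM in mDKO mCherry, against 3.16 and 2.33 in control mCherry. None of these 3 pairs of groups overlapped, as held for 36.9% of all genes in the lower and 42.3% in the higher direction. Suv39h2 was the one that was higher in mDKO.

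Here 6 of the 7 genes were tested, with 2 called lower and 1 higher, beside 20% of all genes called lower and 26.9% called higher (46.9% in all). Wiz was at -0.65 ± 0.19 (limma adjusted p = 0.022), Suv39h1 at -0.51 ± 0.14 (0.0185) and Suv39h2 at 0.58 ± 0.19 (0.037). No more than 1 of these calls was kept when any of the 4 libraries was left out, and Suv39h2 was also lost with size-factor scaling (limma adjusted p = 0.0528) or without the filter (limma adjusted p = 0.0788). Without mDKO mCherry replicate 1 or 2 none remained, with Wiz at a limma adjusted p of 0.108 and 0.0979, Suv39h1 at 0.132 and 0.0581, and Suv39h2 at 0.139 and 0.113. Without control mCherry replicate 1 the 3 were at 0.126, 0.0692 and 0.17, and Setdb2 was called higher (0.71, limma adjusted p = 0.0271). Without control mCherry replicate 2, Suv39h1 was at 0.0665 and Suv39h2 at 0.0616.

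Ehmt1 had 5.12 and 5.74 TPM in mDKO mCherry, against 6.48 and 6.57 in control mCherry, and was not called (-0.23 ± 0.22). Setdb1 had 28.1 and 27.2 TPM in mDKO mCherry, against 34.6 and 33.8 in control mCherry (-0.30 ± 0.17, limma adjusted p = 0.171). It was called lower when these 4 libraries alone were fitted (limma adjusted p = 0.0323). Setdb2 had 16.6 and 15.8 TPM in mDKO mCherry, against 15.2 and 9.52 in control mCherry (0.39 ± 0.21). Ehmt2 was at 0.182 and 0.143 TPM in mDKO mCherry, and was listed at 0 in control mCherry replicate 1 and at 0.132 TPM in replicate 2. Suv39h1 over Suv39h2 was 0.177 and 0.203 in mDKO mCherry, against 0.455 and 0.381 in control mCherry, without overlap. Setdb2 over Setdb1 was 0.590 and 0.579 in mDKO mCherry, against 0.440 and 0.281 in control mCherry, again without overlap but in the other direction from L2C.

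Injected and uninjected embryos form separate sets of libraries, so injection and set cannot be told apart. The fitted mDKO effect at E2C differed between the sets for some members. In a contrast added after their values were seen, the effect with mCherry minus that without injection was -1.30 ± 0.31 for Wiz (limma adjusted p = 0.0195), -0.89 ± 0.24 for Ehmt1 (0.0342) and -0.82 ± 0.24 for Setdb1 (0.0409). These were 3 of the 6 tested, all lower in the injected set, beside 17.9% of all genes called (4.54% lower, 13.4% higher). Leaving out any 1 of the 8 libraries other than mDKO E2C replicate 2 left at most 1 of the 3 calls, and leaving out mDKO mCherry replicate 1 or 2, control mCherry replicate 1 or control E2C replicate 2 left 0. The smallest limma adjusted p in those 4 cases was 0.0562, for Wiz without control E2C replicate 2. With all 8 libraries in 1 additive fit, Suv39h1 stood at -0.36 ± 0.14 and Suv39h2 at 0.35 ± 0.13 (limma adjusted p = 0.0881 and 0.0801). In that fit Ehmt1, Wiz and Setdb1 stood at 0.22 ± 0.20, 0.0017 ± 0.27 and 0.11 ± 0.19, where the uninjected embryos alone gave 0.66, 0.65 and 0.52, and none was called. Cumulus and granulosa markers summed to 321 and 314 TPM in mDKO mCherry embryos, against 62.95 and 51.4 in control mCherry, with 2 of 7 at 1 TPM or more in both mDKO and 1 in both control libraries. Serpine2 alone was at 312 and 307 TPM in mDKO mCherry, against 62.2 and 51.2 in control mCherry. Among the others Inha stood at 7.31 and 5.31 TPM in mDKO mCherry and was listed at 0 in both control mCherry libraries, and Foxl2 and Ptx3 were listed at 0 in all 4. The 2-cell markers summed to 316 and 331 TPM in mDKO mCherry, against 1056 and 1239 in control mCherry. Sperm markers summed to 5.46 and 8.81 TPM in mDKO mCherry, against 33.0 and 44.0 in control mCherry, and blood markers to 31.6 and 18.5 TPM in mDKO mCherry, against 7.51 and 4.11 in control mCherry. The part of these levels was not tested.

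Kdm3a reached 4122 and 2315 TPM in Kdm3aWT embryos and 4043 and 3907 TPM in Kdm3aHA embryos, against 0.262 and 0.411 TPM in mDKO mCherry, a level that includes the injected RNA. Suv39h2 had 57.2 and 41.9 TPM with Kdm3aWT and 27.9 and 39.1 TPM with Kdm3aHA, against 63.5 and 61.6 TPM with mCherry. Both Kdm3a groups lay below the mCherry group without overlap, as did 51.6% of all genes with Kdm3aWT and 40.4% with Kdm3aHA. With Kdm3aHA, Suv39h2 was called lower (-0.90 ± 0.19, limma adjusted p = 0.0199), as 1 of the 6 tested, beside 9.29% of all genes called lower and 1.54% called higher (10.8% in all). The call was lost without Kdm3aHA replicate 1 (-0.67, limma adjusted p = 0.117), mCherry replicate 1 (-0.88, 0.154) or mCherry replicate 2 (-0.92, 0.111). With Kdm3aWT, Suv39h2 was not called (-0.35 ± 0.19, limma adjusted p = 0.27). This comparison and that of mDKO mCherry with control mCherry share the mDKO mCherry libraries.

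Suv39h1 had 8.87 and 10.9 TPM with Kdm3aWT and 12.6 and 13.4 TPM with Kdm3aHA, against 11.3 and 12.5 TPM with mCherry. The Kdm3aWT libraries lay below and the Kdm3aHA libraries above the mCherry group, and neither was called (-0.25 ± 0.14 and 0.12 ± 0.14). Of all genes, 51.6% lay below mCherry without overlap with Kdm3aWT, and 21.9% lay above it with Kdm3aHA. Ehmt1 had 4.84 and 8.10 TPM with Kdm3aWT and 8.43 and 6.85 TPM with Kdm3aHA. Setdb1 had 21.5 and 29.5 TPM with Kdm3aWT and 28.97 and 36.1 TPM with Kdm3aHA. Setdb2 had 12.4 and 16.5 TPM with Kdm3aWT and 17.5 and 18.7 TPM with Kdm3aHA. The Kdm3aWT replicates differed from each other by more than the group means did for Ehmt1, Setdb1 and Setdb2.

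With Kdm3aWT against mCherry 0 of the 6 tested genes were called by limma, beside 11.8% of all genes called (0.949% higher, 10.8% lower) and 3182 at an unadjusted p under 0.05. Size-factor scaling raised the median of all genes in that comparison by 0.17. Ehmt1 and Wiz had positive fitted differences (0.18 ± 0.22 and 0.16 ± 0.19), and Setdb1 and Setdb2 negative ones (-0.13 ± 0.17 and -0.16 ± 0.21) that turned positive with that scaling (0.068 and 0.030). Kdm3aWT against Kdm3aHA gave 0 of the 6 by limma, beside 3.29% of all genes called (1.32% higher, 1.97% lower) and 2537 at an unadjusted p under 0.05. Suv39h2 (0.56 ± 0.19, limma adjusted p = 0.139) and Suv39h1 (-0.37 ± 0.14, 0.173) were furthest from zero there. Without Kdm3aWT replicate 2, Suv39h2 was called higher (0.77, limma adjusted p = 0.0491).

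In wild-type 4C embryos Suv39h1 and Setdb2 were the higher members of their pairs in all 6 libraries. Suv39h1 had 16.8 and 11.9 TPM with Kdm3aWT and 14.98 and 19.2 TPM with Kdm3aHA, against 14.8 and 2.92 TPM with mCherry. Suv39h2 had 3.71 and 3.77 TPM with Kdm3aWT and 1.84 and 2.78 TPM with Kdm3aHA, against 2.98 and 0.537 TPM with mCherry. Suv39h1 over Suv39h2 ran from 3.17 to 8.15 over the 6 libraries. Setdb2 had 25.2 and 29.5 TPM with Kdm3aWT and 8.65 and 21.8 TPM with Kdm3aHA, against 15.3 and 8.41 TPM with mCherry. It exceeded Setdb1, which ran from 2.16 to 8.55 TPM, in all 6 libraries.

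Ehmt1 had 11.4 and 10.9 TPM with Kdm3aWT and 5.34 and 14.2 TPM with Kdm3aHA, against 5.46 and 5.34 TPM with mCherry. Ehmt2 had 4.99 and 4.77 TPM with Kdm3aWT and 5.41 and 5.02 TPM with Kdm3aHA, against 5.44 and 2.16 TPM with mCherry. In 2 of the 6 libraries, Kdm3aHA replicate 1 and mCherry replicate 1, it was level with Ehmt1. Wiz was lowest at this stage, from 0.65 to 1.09 TPM, and did not pass the filter. In the mCherry replicate 2 library Ehmt2, Suv39h1, Suv39h2, Setdb1 and Setdb2 were each lower than in replicate 1, while Ehmt1 was level.

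None of the 6 tested genes was called by limma in any 4C comparison, where 0% of the 9669 genes tested were called. At an unadjusted p under 0.05 there were 776 genes for Kdm3aWT against mCherry, 264 for Kdm3aHA against mCherry and 227 for Kdm3aWT against Kdm3aHA. The fitted differences of Kdm3aWT from mCherry were positive for all 6, from 0.38 ± 0.54 for Ehmt2 to 1.19 ± 0.57 for Setdb2, with a median of 0.93, beside 0.44 over all genes. Without mCherry replicate 2, those of Ehmt2 and Suv39h1 became -0.13 and -0.056. With 1 library left out, the lowest values of the others were 0.25 for Suv39h2, 0.35 for Setdb1, 0.80 for Setdb2 and 0.89 for Ehmt1. For Kdm3aHA against mCherry the fitted differences ran from 0.26 ± 0.57 for Setdb2 to 1.19 ± 0.65 for Suv39h1. Without mCherry replicate 2, those of Ehmt2, Suv39h2 and Setdb2 became -0.053, -0.28 and -0.13. That of Setdb2 was also negative with size-factor scaling (-0.099) and without Kdm3aHA replicate 2 (-0.36). Size-factor scaling lowered the median of all genes by 0.369 and 0.296 in these comparisons. Blood markers summed to 219 TPM in the Kdm3aHA replicate 1 library and to between 0.82 and 28.9 TPM in the other 5, and their part was not tested.

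A list of 29 other genes of H3K9 methylation was read beside the 7: partners of the enzymes, readers, a protector and demethylases, among them the deleted genes themselves. At L2C 26 were tested, 10 called lower and 3 higher in mDKO, with a median log2 fold change of -0.29, beside -0.00066 over all genes. Over all genes 23.3% were called lower and 19.1% higher, 42.4% in all, beside which 13 of 26 is a similar share. Leaving out 1 library gave between 9 and 13 calls. Trim28, the corepressor that recruits SETDB1, had 23.3 and 21.4 TPM in mDKO L2C embryos, against 54.6 and 58.98 in controls (-1.31 ± 0.14, limma adjusted p = 0.000679). Atf7ip2, a paralogue of the SETDB1 partner ATF7IP, had 69.7 and 79.9 TPM in mDKO, against 223 and 154 in controls (-1.30 ± 0.19, limma adjusted p = 0.00185). Pphln1, a subunit of the HUSH silencing complex, had 42.8 and 37.1 TPM in mDKO, against 107 and 118 in controls (-1.47 ± 0.14, limma adjusted p = 0.000418). Uhrf1, a reader of methylated H3K9 and of hemimethylated DNA, went the other way, with 39.7 and 47.2 TPM in mDKO, against 7.93 and 10.7 in controls (2.11 ± 0.20, limma adjusted p = 0.000426). The groups did not overlap for any of these 4, which were named for the size of their change; 73.4% of all genes did not overlap.

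**Figure D5:**
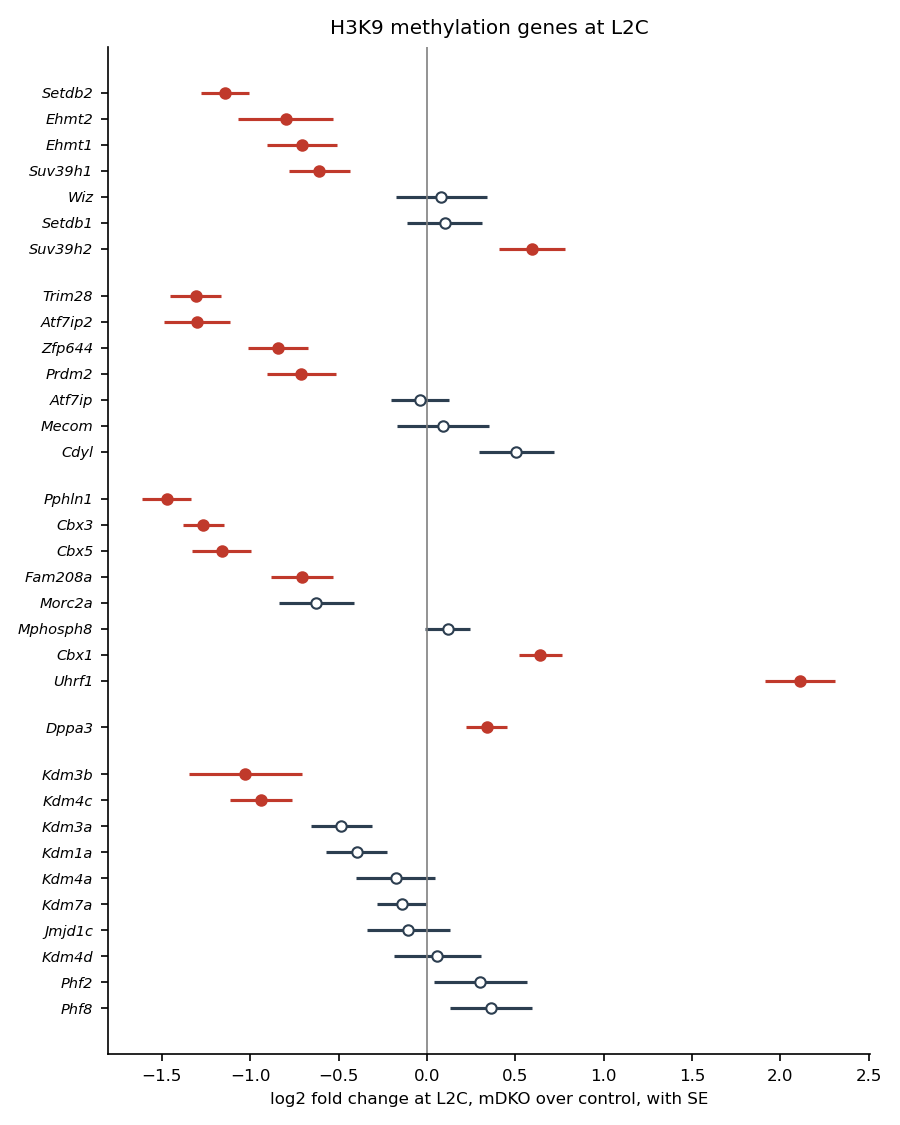
Points are log2 fold changes of mDKO over control at L2C with standard errors; the blocks from top to bottom are the 7 genes described here, partners, readers and silencers, the protector Dppa3, and demethylases, and filled red points were called. The filled points run from -1.47 for Pphln1 to 2.11 for Uhrf1, and Setdb2 lies at -1.14 in the top block.

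At E2C 24 of the 29 were tested, 3 called higher and 1 lower in mDKO, with a median of 0.18, beside -0.0061 over all genes. Over all genes 5.38% were called higher and 8.99% lower, 14.4% in all, beside which 4 of 24 is a similar share. Trim28 had 33.5 and 16.9 TPM in mDKO E2C embryos, against 5.76 and 4.87 in controls (1.98 ± 0.32, limma adjusted p = 0.00571). Mphosph8, the chromodomain subunit of HUSH, stood at 1.25 ± 0.20 and Uhrf1 at 1.02 ± 0.23, and the called lower gene was the deleted Kdm3a (-1.06 ± 0.26). The count of calls was 0 without control replicate 2 and 2 without control replicate 1, and 6 and 8 without mDKO replicate 1 or 2. The mDKO effect on Trim28 differed between L2C and E2C by -3.29 ± 0.34 (limma adjusted p = 0.000158), and that on Pphln1 by -1.68 ± 0.25 (limma adjusted p = 0.00103).

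In mCherry-injected E2C embryos 23 of the 29 were tested, 3 called higher and 5 lower in mDKO, with a median of -0.044, beside 0.038 over all genes. Over all genes 26.9% were called higher and 20% lower, 46.9% in all, a larger share than 8 of 23. The largest differences were Cbx1 at 1.35 ± 0.20, Trim28 at 1.26 ± 0.24, Cbx5 at -1.23 ± 0.13 and Kdm3a at -1.15 ± 0.23. Uhrf1, called higher without injection, stood at 0.0061 ± 0.15 here, and its effect differed between injected and uninjected embryos (-1.02 ± 0.29, limma adjusted p = 0.0425). Cbx1 and Cbx5 encode HP1 proteins, which bind methylated H3K9. Leaving out 1 library gave 6 or 7 calls. In oocytes 23 were tested and 3 called, all lower in mDKO, beside 4.25% of all genes called (0.845% higher, 3.41% lower). They were the deleted genes Kdm3b (-3.25 ± 0.18) and Kdm3a (-2.46 ± 0.21), and the demethylase Kdm7a (-0.91 ± 0.11).

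Across all 26 libraries the genes nearest to each member were found by the Pearson r of log2(TPM + 1), among 7615 genes with a mean of at least 5 TPM. Nearest to Wiz were Phf2 (r = 0.991) and Kmt2b (0.99), and to Ehmt1 Pcnt (0.974) and Smad4 (0.972). Suv39h2 ran closest to Akirin2 (0.985) and Phf14 (0.983), and Setdb1 to Ezh2 (0.978) and Hsd17b7 (0.974). For Suv39h1 they were Gdi2 (0.972) and Ctr9 (0.96), and for Ehmt2 Pttg1ip (0.965) and Leo1 (0.965). Setdb2 had the least close neighbours, Fem1c (0.913) and Tagap1 (0.898). Among the members themselves Suv39h2 and Setdb1 ran together (r = 0.92), while Wiz and Suv39h1 ran opposite (r = -0.818). The libraries share stages, kits and tables, so these values are descriptions.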

How the data were processed

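RNA-seq values were used as TPM, deposited by the authors in 3 tables with 1 column per library; TPM shares out a fixed total after correction for transcript length. Per the submitters' processing notes the tools included STAR 2.7.10b, Bowtie2 2.3.4.1, RSEM 1.3.1 and SAMtools 1.9 with the build mm10, with no roles given. Library totals ran from 999986 to 1000000 TPM, so sequencing depth is unknown and no counting interval can be given. All 26 columns matched 1 sample each, and 0 columns were left out.

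Tests used limma 3.58.1 in R 4.3.3 (lmFit, eBayes with trend) on log2(TPM + 1), two-sided, over genes reaching 1 TPM in 2 or more of the fitted libraries, with Benjamini-Hochberg adjustment over all genes tested. Fold changes on this scale understate those of low genes. Each mDKO against control test used the 4 libraries of its stage; injected E2C and 4C groups shared 1 fit per stage, and stage and interaction contrasts used the 12 uninjected libraries. Values after ± are standard errors, and every group had 2 libraries. The labels do not say whether pools came from separate matings, so p-values may measure technical spread only. The scripts were tested on simulated data.

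The members and lists were chosen with earlier results of these data known. Named beside the members were up to 4 called genes of the H3K9 list per comparison by size of log2 fold change, the 2 nearest genes per member (leaving out predicted genes and clone names), the targeted genes and markers. Alternatives were a pseudocount of 0.1, no filter, size-factor scaling, a replicate block, each library left out, and other sets of libraries in the fit. Locations came from GENCODE M21 and promoters from RefSeq, both on GRCm38, which mm10 represents; all 7 members matched.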

Additional observations from a re-analysis of the deposited data

Results flagged for a closer look

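For 6 results the effect of maternal KDM3A and KDM3B loss differed between conditions by a test of the difference itself (limma contrasts, adjusted over all genes). Between L2C and E2C the effect differed by -1.37 for Ehmt1, -1.15 for Ehmt2 and -1.02 for Setdb2, each lower at L2C. Over all genes 25.7% were called in that contrast (12.5% lower, 13.2% higher). The Ehmt1 value rests in part on the uninjected E2C effect (0.66 ± 0.22), which stood at -0.23 ± 0.22 in mCherry-injected embryos. The Ehmt2 value rests on E2C levels under 1 TPM, too low to grade, and its call was lost in 4 of 12 alternatives. Between mCherry-injected and uninjected E2C embryos, in a contrast added after the values were seen, the mDKO effect differed for 3 genes. The difference was -0.89 for Ehmt1, -1.30 for Wiz and -0.82 for Setdb1. Over all genes 17.9% were called in this contrast (4.54% lower, 13.4% higher). The call was kept in 5 of 12 alternatives for Ehmt1, 6 for Wiz and 4 for Setdb1. All 3 calls were lost without the filter on low TPM. These embryos form separate sets of libraries, so injection and set cannot be told apart. No group had enough libraries for an outlier test.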

How the results depend on the processing

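The counts of called members depended on the setting. For mDKO against control at E2C the count was 2 with the replicate block (Ehmt1 and Setdb1, limma adjusted p = 0.0348 and 0.0307), 1 with all 12 uninjected libraries in 1 fit, and 0 to 3 when 1 library was left out, against 0 in the main test. At L2C it was 1 without the filter and 1 to 4 when 1 library was left out, against 5. With injection it ran from 0 to 1 for mDKO mCherry against control mCherry, for Kdm3aHA against mCherry (0 without the filter) and for Kdm3aWT against Kdm3aHA when 1 library was left out. For the contrast of injected with uninjected embryos it was 0 without the filter and 0 to 3 when 1 library was left out. The other counts, of the stage, MII and 4C comparisons and of the L2C against E2C contrast, stayed within 1.5 times their main value in every alternative.

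All results that changed direction had no call in the main test, and the cause was not tested. With size-factor scaling the log2 fold change of mDKO oocytes became 0.0080 for Suv39h2 and 0.00089 for Setdb1, that of Kdm3aWT against mCherry in mDKO became 0.068 for Setdb1 and 0.030 for Setdb2, that of Kdm3aHA against mCherry at 4C became -0.099 for Setdb2, that of control E2C against MII became 0.25 for Suv39h2, and that of control L2C against E2C became 0.023 for Wiz. With the 8 E2C libraries of both tables Setdb2 stood at 0.13, and at a pseudocount of 0.1 the E2C against MII contrast of Ehmt2 stood at 0.12. With 1 library left out, mDKO against control ran from -0.20 to 0.079 for Suv39h2, -0.17 to 0.034 for Setdb1 and -0.024 to 0.030 for Setdb2 at MII. It ran from -0.43 to 0.011 for Suv39h1 at E2C, and from -0.033 to 0.19 for Wiz and -0.15 to 0.35 for Setdb1 at L2C. Kdm3aWT against mCherry in mDKO ran from -0.14 to 0.50 for Ehmt1, -0.35 to 0.090 for Setdb1 and -0.35 to 0.030 for Setdb2, and Kdm3aWT against Kdm3aHA from -0.56 to 0.081 for Ehmt1. At 4C, Kdm3aWT against mCherry ran from -0.13 to 0.90 for Ehmt2 and -0.056 to 1.95 for Suv39h1. Kdm3aHA against mCherry ran from -0.015 to 1.25 for Ehmt1, -0.053 to 0.97 for Ehmt2, -0.28 to 1.09 for Suv39h2 and -0.36 to 0.88 for Setdb2, and Kdm3aWT against Kdm3aHA from -0.33 to 0.94 for Ehmt1. Control E2C against MII ran from -0.16 to 0.093 for Suv39h2, control L2C against E2C from -0.21 to 0.021 for Wiz, and mDKO L2C against E2C from -0.096 to 0.35 for Suv39h1.

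The labels link same-numbered libraries of the groups compared by number only. The correlation of their deviations was 0.359 at MII and between -0.116 and 0.187 elsewhere. Whether the MII libraries were paired cannot be told from the labels, and the main tests used no replicate block. Counts over all genes ranged from 42 to 2143 at MII (458 in the main test; 2143 with the block), 282 to 3214 at E2C (1600), 91 to 1551 for Kdm3aWT against mCherry (1288), 216 to 1561 for Kdm3aHA against mCherry (1187), 8 to 1493 for Kdm3aWT against Kdm3aHA (361), and 3117 to 5665 for mDKO mCherry against control mCherry (5141). At 4C they reached 491, 21 and 23. For the contrasts they ranged from 216 to 839 (555) for E2C against MII and from 1069 to 2731 (2103) for injection. With 2 libraries per group, a left-out library leaves 1 whose spread is assumed to be that of the others. Because TPM keeps no depth, values under about 1 TPM, such as those of Ehmt2 at E2C, cannot be graded further.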
